A study of Mus musculus with 20 samples.

Results

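The 41 genes described here are a list of cell cycle genes defined by their names and chosen with earlier results of these data known. All 41 were found among the 43422 Ensembl genes measured in each abdominal aorta. They were split by what their products do into 18 replication genes, which carry a cell from G1 through S phase, and 23 mitosis genes, which act in G2 and M phase. The level of each gene was measured by RNA sequencing in 20 mice, as FPKM, fragments scaled for the length of the transcript and the size of the library, a unit in which genes of different length can be set side by side.

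The mice were C57Bl/6NCrl per the methods (C57BL/6 in the labels) and came in 4 groups of 5. The labels give their age as 6 months, whereas the methods give a younger age at the start of the infusion. Wild-type (WT) mice were infused for 14 days through subcutaneous osmotic pumps with saline or with angiotensin II (Ang II) at 1000 ng/kg per minute. Plod1-/- mice, which lack lysyl hydroxylase 1 (LH1), an enzyme that modifies lysines of collagen, were given saline or Ang II in the same way. Per the methods the mice were male littermates from crosses of heterozygotes, and how the allele was made is not given in the sources used here. Each library came from the aorta of 1 mouse.

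A cell that divides first copies its DNA and then separates the copies. In G1, D-type cyclins and then cyclin E with Cdk2 release E2F transcription factors, which switch on the genes for origin licensing, for the MCM helicase and for the supply of deoxynucleotides. Cyclin A and cyclin B with Cdk1 then drive G2 and mitosis. The genes for the spindle, the kinetochore and the anaphase-promoting complex are switched on late, in good part through FOXM1 and the DREAM and MuvB complexes. These act through CHR elements in promoters, and CCAAT boxes are often found in the same promoters. In the healthy adult aorta very few cells divide.

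The promoters of both classes differ in these elements, and 7 of them are printed. Ccnb2, Cdk1 and Ube2c are mitosis genes with some of the largest responses described further on, Mcm5, Cdt1 and Ccne1 are replication genes given there mouse by mouse, and Mcm6 had the smallest ratio of the helicase genes while Mcm5 had the largest. RefSeq windows of 300 bases, from 250 bases before to 50 bases after the start of the gene (build GRCm38.p6), were found for 33 of the 41 genes (15 replication and 18 mitosis genes). The CHR was searched as TTTGAA, the CCAAT box as CCAAT, and the E2F element as TTTCCCGC, TTTGGCGC, TTTCGCGC or TTTGCCGC, all on both strands. Shown are the 250 bases before the start, read 5′ to 3′ on the strand of the gene, with matches to any of these motifs in capitals. In Ube2c a pair of CCAAT boxes on opposite strands overlap, and in Mcm5 and Mcm6 a pair of E2F matches overlap and run together. In Cdt1 and Ccne1 no match lies in the bases shown, and the single E2F match of the Cdt1 window lies past the start.
Ccnb2 (chr9:70421555-70421804, minus strand): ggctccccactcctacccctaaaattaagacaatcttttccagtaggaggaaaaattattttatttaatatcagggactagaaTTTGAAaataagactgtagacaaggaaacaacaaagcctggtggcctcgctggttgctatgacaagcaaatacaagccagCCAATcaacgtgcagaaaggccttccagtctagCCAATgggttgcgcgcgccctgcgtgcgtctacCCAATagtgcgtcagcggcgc
Cdk1 (chr10:69352913-69353162, minus strand): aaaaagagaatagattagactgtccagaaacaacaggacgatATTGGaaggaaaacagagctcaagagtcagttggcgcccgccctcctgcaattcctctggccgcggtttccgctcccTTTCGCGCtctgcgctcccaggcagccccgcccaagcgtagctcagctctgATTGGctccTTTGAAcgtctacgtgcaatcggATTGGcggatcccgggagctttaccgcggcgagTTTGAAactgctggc
Ube2c (chr2:164769679-164769928, plus strand): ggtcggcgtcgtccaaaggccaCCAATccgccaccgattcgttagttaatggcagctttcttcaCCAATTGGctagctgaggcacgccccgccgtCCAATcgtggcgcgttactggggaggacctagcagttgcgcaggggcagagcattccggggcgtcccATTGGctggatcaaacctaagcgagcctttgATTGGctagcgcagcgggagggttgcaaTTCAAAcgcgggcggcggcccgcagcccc
Mcm5 (chr8:75109259-75109508, plus strand): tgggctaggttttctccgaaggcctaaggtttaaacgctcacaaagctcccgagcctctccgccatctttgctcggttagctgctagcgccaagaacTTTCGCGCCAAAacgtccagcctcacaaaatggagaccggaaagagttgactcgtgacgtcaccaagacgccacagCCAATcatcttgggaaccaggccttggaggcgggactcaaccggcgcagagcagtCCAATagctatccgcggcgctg
Mcm6 (chr1:128359706-128359955, minus strand): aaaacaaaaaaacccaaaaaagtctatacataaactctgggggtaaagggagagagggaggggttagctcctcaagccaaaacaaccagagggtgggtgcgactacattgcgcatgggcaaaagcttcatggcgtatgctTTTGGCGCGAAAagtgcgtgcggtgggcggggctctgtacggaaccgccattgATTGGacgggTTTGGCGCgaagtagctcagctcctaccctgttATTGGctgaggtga
Cdt1 (chr8:122567765-122568014, plus strand): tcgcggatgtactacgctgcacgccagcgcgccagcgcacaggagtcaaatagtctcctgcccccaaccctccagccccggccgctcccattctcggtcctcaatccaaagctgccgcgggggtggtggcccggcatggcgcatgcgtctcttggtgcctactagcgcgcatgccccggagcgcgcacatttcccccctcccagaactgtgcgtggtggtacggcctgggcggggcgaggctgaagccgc
Ccne1 (chr7:38107491-38107740, minus strand): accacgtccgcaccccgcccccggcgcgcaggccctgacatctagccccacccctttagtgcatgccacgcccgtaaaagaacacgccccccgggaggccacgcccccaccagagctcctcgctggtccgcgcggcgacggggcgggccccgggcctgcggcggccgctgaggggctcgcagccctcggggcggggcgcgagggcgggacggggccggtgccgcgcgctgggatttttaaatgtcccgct

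A symbol with several windows counted as holding a motif when any of them held it. A CHR was present for 13 of 18 mitosis genes (72.2%) and 1 of 15 replication genes (6.67%), against 20.2% of all 27025 gene symbols. A CHR and a CCAAT box, not always in the same window, were found for the same 72.2% and 6.67%, against 8.97% of all symbols. E2F matches had the opposite distribution, with 7 of 15 replication genes (46.7%) and 1 of 18 mitosis genes (5.56%, Cdk1, in the window printed above). Among all symbols 2.6% had an E2F match. CCAAT boxes alone were common in every set, for 88.9% of mitosis genes, 60.0% of replication genes and 41.1% of all symbols. These shares describe letters in a window and were not tested. A match does not show that a factor binds there, and genes without a match may hold other forms of the element.

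The libraries carried the genotype on their labels. Plod1 lay between 22.8 and 29.7 FPKM in the 10 WT mice and at most at 0.0415 FPKM in the 10 Plod1-/- mice. Xist RNA, a transcript of female cells, was present at 15.1 FPKM in Plod1-/- saline replicate 5 and at 7.93 FPKM in Plod1-/- Ang II replicate 1, against at most 0.0328 FPKM in the other 18 libraries. Mitochondrial genes took 8.37 to 29.1% of the summed FPKM, most in WT Ang II mice (14.6 to 29.1%). The FPKM of a library summed to between 344207 and 437790, and the number of reads behind these values is unknown. For the cell cycle genes 2 libraries stood apart within their groups. Plod1-/- Ang II replicate 1 had the lowest level of its group in 38 of the 41 genes, and WT Ang II replicate 1 had the highest level of its group in 34 of 41. Results that rest on them are given with and without them.

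**Figure D1:**
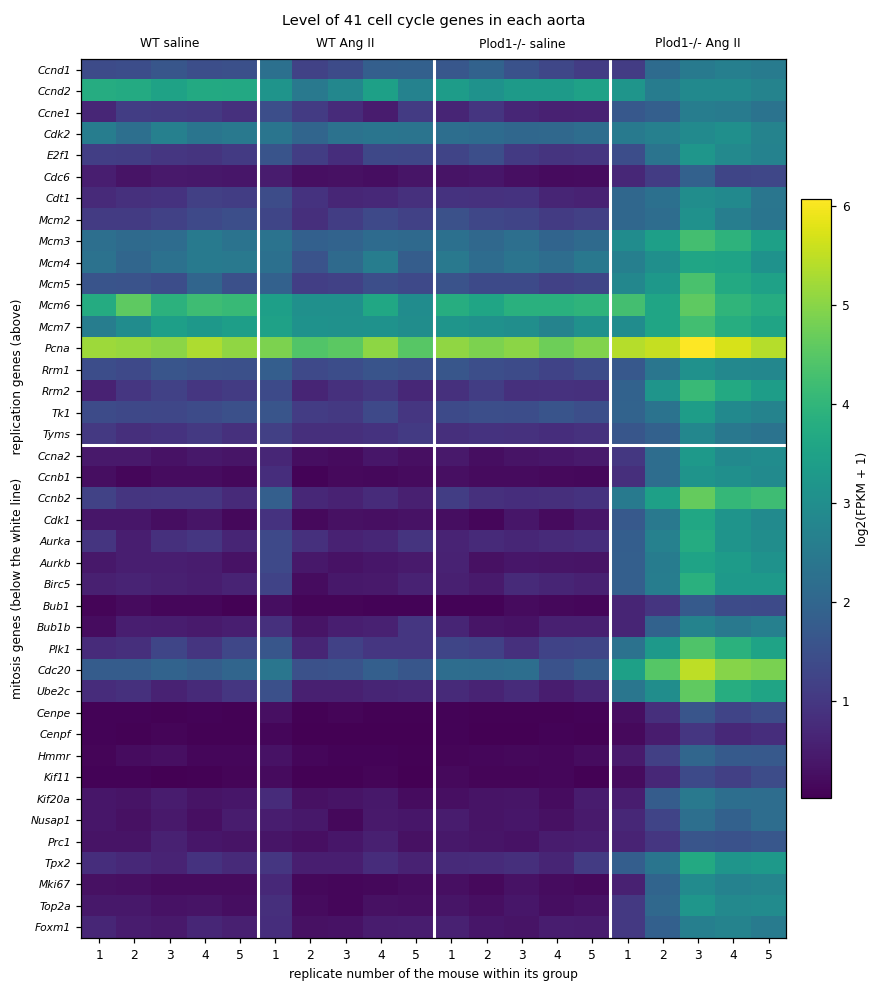
Level of the 41 cell cycle genes (rows, replication genes above the white line and mitosis genes below it) in each of the 20 mice (columns, by group and replicate number), as log2(FPKM + 1) on the colour scale. Most mitosis genes are dark in the first 3 groups and bright in Plod1-/- Ang II mice, where the median mitosis gene averaged 5.08 FPKM against 0.304 to 0.328 FPKM in the other groups.

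At rest the 2 classes sat at different levels. In saline-infused WT aortas 21 of the 23 mitosis genes averaged below 1 FPKM, with a median over genes of 0.304 FPKM, whereas the replication genes had a median of 1.81 FPKM and 5 of 18 were below 1 FPKM. The same 21 of 23 held for WT Ang II and for Plod1-/- saline mice, and 1 of 23 for Plod1-/- Ang II mice. Pcna, the sliding clamp of DNA polymerases, which also serves DNA repair, was the highest member in every group, at 34.5 ± 3.14 FPKM (mean ± SD, n = 5) in WT saline mice. Mcm6 at 16.5 ± 4.04, Ccnd2 at 11.8 ± 0.831 and Mcm7 at 7.94 ± 2.05 FPKM came next in the same mice. Among mitosis genes Cdc20, an activator of the anaphase-promoting complex, was highest at 2.62 ± 0.255 FPKM, and Kif11, a spindle motor, and Cenpf, a kinetochore protein, were lowest at 0.042 ± 0.0162 and 0.0424 ± 0.0128 FPKM. Pcna lay above Mcm6 in each of the 5 WT saline mice, while Mcm6 and Ccnd2 overlapped between mice.

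Ang II infusion of Plod1-/- mice was followed by higher levels of nearly the whole list. In 35 of 41 genes every Ang II mouse lay above every saline mouse (22 of 23 mitosis genes and 13 of 18 replication genes), whereas 7.37% of all genes with a value above 0 in these mice behaved in this way. In 0 of 41 did every Ang II mouse lie below every saline mouse, against 5.75% of all genes. The ratio of mean FPKM, Ang II over saline, had a median of 16.1 over the mitosis genes (range 4.62 for Prc1 to 36.7 for Ccnb1) and of 3.26 over the replication genes (range 0.695 for Ccnd2 to 10.9 for Rrm2). The 6 genes with overlapping groups were Ccnd1, Ccnd2, Mcm6, Mcm7, E2f1 and Bub1b. In whole aortas, more dividing cells and more of these RNAs per cell cannot be told apart.

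Across genes, log2(FPKM + 1) was tested with limma, where the added 1 makes changes of genes with low levels look smaller than they are. A gene was called when its Benjamini-Hochberg adjusted p was below 0.05 and its log2 difference was above 1 in size. Over all genes with any value, 30 of the 41 were called higher and 0 lower (20 of 23 mitosis and 10 of 18 replication genes), against 3.16% of all genes called higher. The median log2 difference was 2.06 over the mitosis genes, 1.16 over the replication genes and 0.01 over all genes. With genes limited to those reaching 1 FPKM in at least 5 of the 10 mice, 28 members were tested and 21 were called higher, beside 8.38% of all genes tested. Of those 28, 10 (Top2a, Ccne1, Cdk1, Cdt1, Tyms, Aurka, Aurkb, Birc5, Foxm1 and Ube2c) passed the limit through the Ang II group alone and had to differ, so the second count adds nothing about the list. All 10 were also called in the fit without a limit. That count was 11 without any one of the Ang II mice, since a gene high only in the 4 that remain cannot reach the limit, and 29 of 36 when Ang II replicate 1 was left out with the limit at 4 mice. By the adjusted p alone 25 were higher and 1, Ccnd2, was lower, while 23.8% of all genes tested were higher and 20.1% were lower by that rule. Per gene values below come from the fit on the limited set. The limit had selected the 10 genes named above for a difference, so their adjusted p is no separate support. The 13 genes outside that set were tested one at a time by a two-sided exact permutation test. Its smallest p for 5 against 5 mice is 0.00794.

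**Figure D2:**
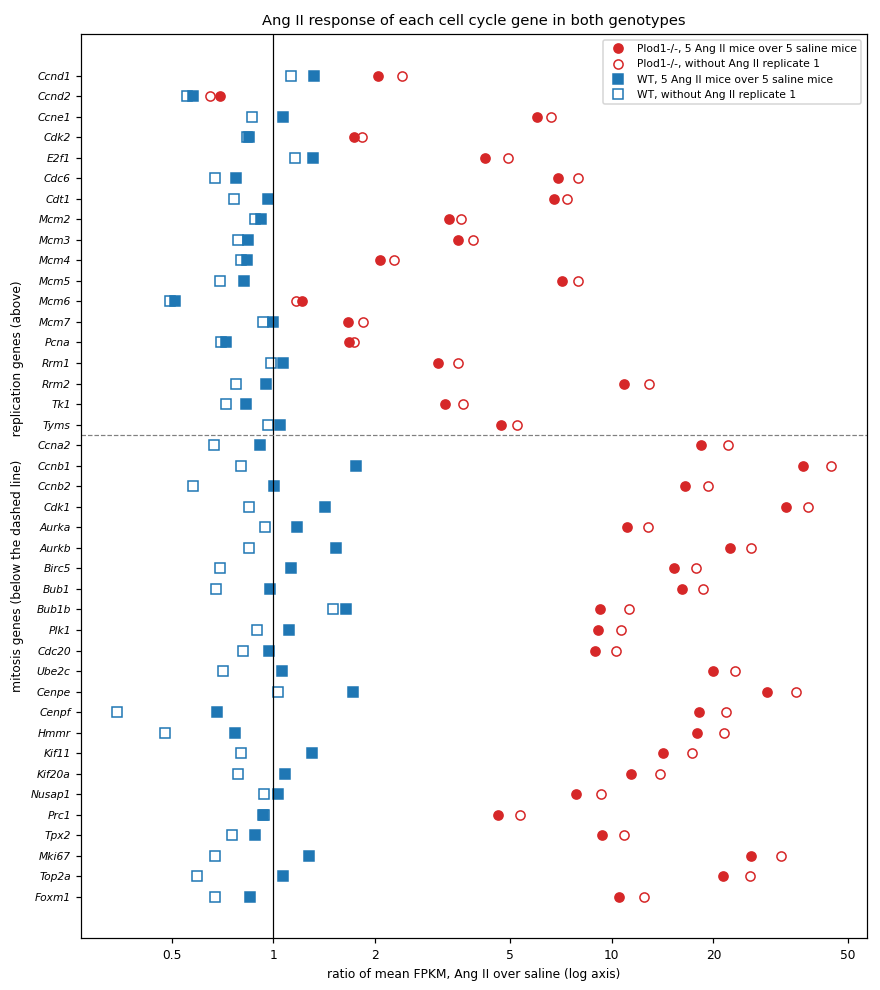
Ratio of mean FPKM in Ang II over saline mice (x axis, log scale) for each of the 41 genes (y axis, replication genes above the dashed line, mitosis genes below), in Plod1-/- mice (red circles) and WT mice (blue squares). Filled symbols use all 5 mice a group and open symbols leave out Ang II replicate 1. In Plod1-/- mice 40 of 41 ratios lie above 1, with mitosis genes further right (median 16.1) than replication genes (3.26), and WT ratios lie between 0.513 and 1.75.

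The cyclins of mitosis and their kinase rose together, with ratios of means between 16.5 and 36.7. Cdk1, the kinase that triggers entry into mitosis, measured 0.178, 0.0819, 0.293, 0.142 and 0.296 FPKM in saline-infused Plod1-/- replicates 1 to 5 and 2.26, 4.5, 11.3, 7.87 and 6.54 FPKM in Ang II replicates 1 to 5. The lowest Ang II mouse was replicate 1 and lay far above the highest saline mouse, and Cdk1 rose by 2.51 ± 0.29 on the log2 scale (SE, n = 5 a group; limma, Benjamini-Hochberg adjusted p = 0.000139). Ccnb2, cyclin B2, measured 1.17, 0.792, 0.746, 0.778 and 0.862 FPKM with saline and 4.7, 10.02, 24.1, 15.6 and 17.2 FPKM with Ang II. Its groups did not overlap, replicate 3 was highest, and the log2 difference was 2.87 ± 0.33 (limma, adjusted p = 0.000128), the largest among the members tested. Ccnb1, cyclin B1, went from 0.141 ± 0.0308 to 5.19 ± 2.99 FPKM, a ratio of 36.7, and Ccna2, cyclin A2, from 0.287 ± 0.0758 to 5.28 ± 3.02 FPKM, a ratio of 18.4. Both were below the limit for the fit and reached the smallest exact permutation p of 0.00794, with log2 differences of 2.23 and 2.1. Ccna2 overlaps Exosc9 on the opposite strand, which reached 5.02 FPKM, in libraries that do not mark strand.

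The mitotic kinases and the spindle checkpoint rose as well. Aurkb, the kinase of the chromosomal passenger complex, measured 0.5, 0.217, 0.31, 0.274 and 0.254 FPKM in saline mice and 2.61, 4.9, 10.6, 9.17 and 7.54 FPKM in Ang II mice. The groups were separated by a wide gap, and the log2 difference was 2.49 ± 0.28 (limma, adjusted p = 0.000107). Birc5, survivin, a subunit of the same complex, rose from 0.502 ± 0.107 to 7.65 ± 4.13 FPKM (2.38 on the log2 scale, limma adjusted p = 0.000236). Aurka, which matures spindle poles, rose by 2.17 and Plk1, a kinase used throughout mitosis, by 2.32 on the log2 scale (limma, adjusted p = 0.000257 and 0.00033). Of the checkpoint kinases, Bub1 went from 0.0873 ± 0.0328 to 1.41 ± 0.692 FPKM without overlap of the groups, while Bub1b went from 0.403 ± 0.137 to 3.74 ± 2.08 FPKM with replicate 1 inside the saline range (exact permutation p = 0.0159).

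Both genes of the anaphase-promoting complex, which ends mitosis, rose. Ube2c, its ubiquitin-conjugating enzyme, measured 0.675, 0.544, 0.703, 0.404 and 0.576 FPKM with saline and 4.27, 6.91, 23.3, 12.9 and 10.7 FPKM with Ang II. Every Ang II mouse exceeded every saline mouse and the log2 difference was 2.81 ± 0.33 (limma, adjusted p = 0.000147). Cdc20 rose from 2.99 ± 0.767 to 26.6 ± 12.3 FPKM, by 2.67 on the log2 scale (limma, adjusted p = 0.000161). Cdc20 overlaps Elovl1 on the opposite strand, a gene reaching 93.1 FPKM here, and the libraries do not mark strand, so reads in the overlap cannot be told apart.

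Among the 8 spindle and kinetochore genes the ratio of means ran from 4.62 for Prc1, which bundles microtubules of the central spindle, to 28.8 for Cenpe, a kinetochore motor. The levels of most of them stayed low even after Ang II: Cenpf reached 0.573 ± 0.33 FPKM from 0.0316 ± 0.0176, Kif11 1.04 ± 0.657 from 0.0733 ± 0.0289 and Hmmr, a spindle-bound protein, 1.86 ± 1.05 from 0.104 ± 0.0303 FPKM. Kif20a, a motor needed in cytokinesis, reached 2.91 ± 1.58 FPKM and Nusap1, which binds spindle microtubules, 2.39 ± 1.35 FPKM. In all 8 the groups did not overlap. Tpx2, an activator of Aurka, was the only one of the 8 above the limit for the fit and rose by 2.06 on the log2 scale (limma, adjusted p = 0.000496). The other 7 each had an exact permutation p of 0.00794, with log2 differences of 0.58 (Cenpf) to 1.5 (Kif20a). Prc1, Kif20a, Nusap1 and Cenpf overlap Rccd1, Cdc23, Oip5 and Gm37239 on the opposite strand. These reached 4.0, 4.91, 1.5 and 0.534 FPKM, and reads in the overlaps cannot be told apart.

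Mki67 and Top2a are the usual markers of dividing cells, the first coating mitotic chromosomes and the second untangling DNA. Mki67 measured 0.188, 0.114, 0.231, 0.16 and 0.128 FPKM in saline mice and 0.478, 2.89, 6.62, 5.48 and 5.78 FPKM in Ang II mice. Replicate 1 was the lowest Ang II mouse, still above the highest saline mouse, and the other 4 were far higher (exact permutation p = 0.00794, log2 difference 1.96). Top2a measured 0.284, 0.191, 0.292, 0.183 and 0.237 FPKM with saline and 1.04, 3.19, 8.24, 6.31 and 6.62 FPKM with Ang II. It had the same order of mice with replicate 1 lowest and replicate 3 highest, and rose by 2.11 ± 0.35 (limma, adjusted p = 0.000925). Foxm1, the transcription factor of G2 and M phase genes, rose from 0.367 ± 0.0888 to 3.87 ± 1.97 FPKM (1.71, limma adjusted p = 0.00105).

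The replication genes had smaller and less even ratios. In origin licensing, Cdt1, which loads the helicase onto DNA, measured 0.872, 0.836, 0.873, 0.547 and 0.511 FPKM in saline mice and 3.14, 3.78, 6.96, 6.42 and 4.29 FPKM in Ang II mice. The groups stood apart, and the log2 difference was 1.74 ± 0.18 (limma, adjusted p = 7.76e-05). Cdc6, its partner in loading, rose from 0.213 ± 0.0677 to 1.48 ± 0.786 FPKM (exact permutation p = 0.00794).

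The 6 subunits of the MCM2-7 helicase act as a single ring, yet their RNAs responded over a wide span, with ratios from 1.21 for Mcm6 to 7.14 for Mcm5. Mcm5 measured 1.97, 1.58, 1.58, 1.26 and 1.41 FPKM with saline and 6.07, 8.55, 19.2, 11.8 and 10.1 FPKM with Ang II. Its lowest Ang II mouse was well above every saline mouse (2.16 ± 0.23, limma adjusted p = 9.47e-05). Mcm2 measured 1.88, 1.47, 1.39, 1.1 and 1.23 FPKM and 3.07, 3.56, 7.42, 5.11 and 4.19 FPKM and rose by 1.19 ± 0.18 (limma, adjusted p = 0.00061), again without overlap. Mcm3 rose by 1.49 (adjusted p = 0.000387), whereas Mcm4 at 0.86 (adjusted p = 0.00301) and Mcm7 at 0.61 (adjusted p = 0.0306) passed the adjusted p of limma but not the size of 1. Mcm6 differed by 0.22 ± 0.18 (limma, adjusted p = 0.325), with means of 13.1 ± 1.39 and 15.9 ± 4.68 FPKM. Mcm5 and Mcm6 both carry overlapping E2F matches in the promoters printed above. With saline Mcm6 had the highest and Mcm2 and Mcm5 had the lowest levels of the 6 in both genotypes. Mcm7 overlaps Cops6 on the opposite strand, which reached 45.1 FPKM.

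The genes of nucleotide supply formed a more even group. Tyms, thymidylate synthase, measured 0.789, 0.874, 0.851, 0.76 and 0.838 FPKM in saline mice, within a narrow band, and 2.11, 2.73, 6.03, 4.46 and 4.04 FPKM in Ang II mice. The groups did not overlap (1.36 ± 0.19, limma adjusted p = 0.000375). Rrm2, the S phase subunit of ribonucleotide reductase, had the largest ratio of the replication genes, from 0.889 ± 0.163 to 9.7 ± 4.99 FPKM (2.34, adjusted p = 0.000385), whereas its large subunit Rrm1 rose by 1.13 (adjusted p = 0.00276) in the same limma fit. Tk1, thymidine kinase, rose by 1.19 (limma, adjusted p = 0.00195).

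In the G1 machinery the direction differed by cyclin. Ccne1, cyclin E1, measured 0.567, 0.936, 0.587, 0.487 and 0.509 FPKM with saline and 2.22, 2.6, 4.95, 4.78 and 4.01 FPKM with Ang II. Saline replicate 2 was the highest of its group but still below every Ang II mouse (1.51 ± 0.18, limma adjusted p = 0.000151). Ccnd1, cyclin D1, measured 2.16, 2.77, 1.89, 1.45 and 1.14 FPKM and 1.14, 3.41, 4.73, 5.22 and 4.74 FPKM. Ang II replicate 1 had as low a level as the lowest saline mouse and the other 4 lay above every saline mouse (0.68 ± 0.28, limma adjusted p = 0.0734). Ccnd2, cyclin D2, was the one member that fell by the adjusted p, from 9.02 ± 0.885 to 6.27 ± 1.16 FPKM (-0.47 ± 0.12, limma adjusted p = 0.00951), less than the size of 1 needed for a call. Cdk2, the partner of cyclin E, rose by 0.64 (limma, adjusted p = 0.00103), also below that size. E2f1 rose by 1.37 (limma, adjusted p = 0.00304), from 1.22 ± 0.362 to 5.15 ± 2.42 FPKM.

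Pcna measured 32.6, 28.2, 31.6, 25.5 and 29.5 FPKM with saline and 41.4, 45.6, 66.4, 51.5 and 41.3 FPKM with Ang II. The groups did not overlap although the ratio of means was 1.67, and the log2 difference of 0.7 ± 0.14 (limma, adjusted p = 0.00235) was too small for a call. Pcna was thus the highest member and among those with the smallest relative change.

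The Plod1-/- Ang II mice spanned a wide range. As a multiple of the saline mean, the median mitosis gene stood at 3.62 in replicate 1, 10.5 in replicate 2, 26.8 in replicate 3, 17.9 in replicate 4 and 18.4 in replicate 5. The median replication gene stood at 1.5, 2.5, 5.31, 3.65 and 3.08 in the same mice. Replicates 1 and 3 were lowest and highest in both classes, and replicate 3 was the highest mouse in 35 of the 41 genes. Replicate 1, 1 of the 2 libraries with Xist RNA, lay above every saline mouse in 36 of 41 genes. The share of all genes for this single mouse is not given here. With replicate 1 left out, 39 of 41 groups did not overlap (23 of 23 mitosis and 16 of 18 replication genes, against 13.1% of all genes). Ccnd2 then lay lower in every remaining Ang II mouse, and Mcm6 still overlapped. Without both libraries with Xist RNA the count was again 39 of 41, against 14.6% of all genes.

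In WT mice the same infusion left the group means of the list near their saline level, with single mice on either side. In 0 of 41 genes did every Ang II mouse lie above every saline mouse (4.26% of all genes did), and in 2, Ccnd2 and Mcm6, every Ang II mouse lay below (3.79% of all genes). The median ratio of means was 1.07 over the mitosis genes and 0.883 over the replication genes. By limma with Benjamini-Hochberg adjustment 0 of 15 tested members (14 replication genes and 1 mitosis gene, Cdc20) were called, with 3 at an unadjusted p below 0.05. Among all genes tested 6.38% were called higher. Without the limit on low values 0 of 41 were called, also with 3 at an unadjusted p below 0.05, beside 1.94% of all genes called higher. The shares of all genes at an unadjusted p below 0.05 are not given here. In WT mice 21 of the 23 mitosis genes averaged below 1 FPKM, where the added 1 leaves only large rises to be called. The counts say little about smaller changes of these genes. By the adjusted p alone 3 replication genes were lower, a direction shared by 21.5% of all genes tested: Mcm6 (-0.88 ± 0.18, limma adjusted p = 0.00525), Ccnd2 (-0.75 ± 0.17, adjusted p = 0.00776) and Pcna (-0.47 ± 0.14, adjusted p = 0.0222). The 26 members below the limit had exact permutation p-values of 0.167 to 0.992, with log2 differences between -0.09 and 0.21.

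**Figure D3:**
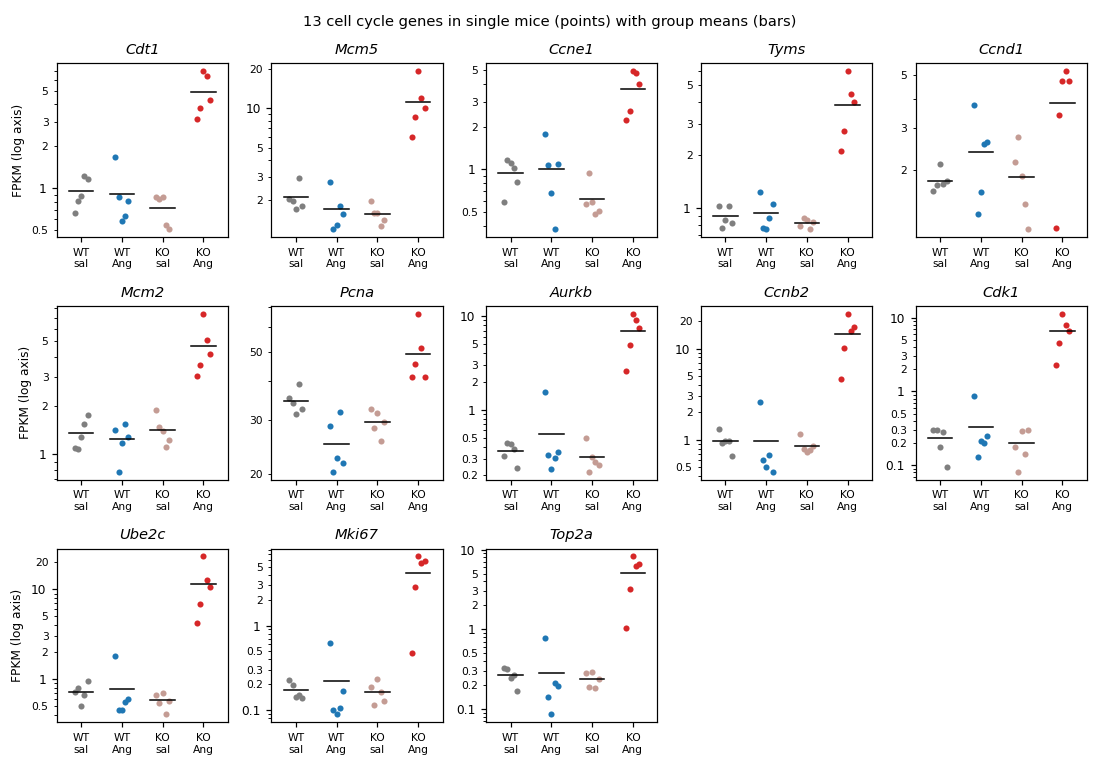
FPKM (y axis, log scale, a different range in each panel) of 13 cell cycle genes in single mice (points) with the mean of each group (bar), for WT saline, WT Ang II, Plod1-/- saline and Plod1-/- Ang II mice from left to right (KO stands for Plod1-/-, sal for saline and Ang for Ang II), 5 mice a group. In 12 of the 13 panels all Plod1-/- Ang II points lie above all Plod1-/- saline points; Ccnd1 is the exception, and in several mitosis gene panels a single WT Ang II point stands above the rest of its group.

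Values of the WT mice show how far this rests on single animals. Mki67 measured 0.227, 0.198, 0.143, 0.148 and 0.136 FPKM in saline replicates 1 to 5 and 0.626, 0.0987, 0.0878, 0.104 and 0.169 FPKM in Ang II replicates 1 to 5, so that replicate 1 stood above and replicates 2 to 4 stood below every saline mouse. Top2a measured 0.33, 0.316, 0.241, 0.264 and 0.17 FPKM with saline and 0.785, 0.142, 0.0852, 0.209 and 0.193 FPKM with Ang II. Cdk1 measured 0.301, 0.3, 0.179, 0.279 and 0.0953 FPKM with saline and 0.858, 0.129, 0.21, 0.198 and 0.246 FPKM with Ang II. In both, Ang II replicate 1 was the highest of the 10 WT mice and the other 4 Ang II mice lay within or below the saline range. Aurkb measured 0.32, 0.439, 0.425, 0.379 and 0.239 FPKM with saline and 1.54, 0.325, 0.235, 0.308 and 0.357 FPKM with Ang II. Ccnb2 measured 1.3, 0.917, 0.963, 0.972 and 0.666 FPKM with saline and 2.6, 0.602, 0.502, 0.683 and 0.449 FPKM with Ang II. Ube2c measured 0.725, 0.796, 0.496, 0.672 and 0.95 FPKM with saline and 1.8, 0.45, 0.458, 0.55 and 0.607 FPKM with Ang II. All 3 had the same single high mouse.

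The replication genes of WT mice were less dominated by that mouse. Cdt1 measured 0.669, 0.812, 0.881, 1.23 and 1.16 FPKM with saline and 1.69, 0.87, 0.587, 0.633 and 0.812 FPKM with Ang II. Mcm5 measured 2.02, 1.95, 1.71, 2.94 and 1.81 FPKM and 2.75, 1.2, 1.28, 1.78 and 1.55 FPKM. In Mcm5 the highest WT mouse was a saline one, replicate 4. Mcm2 measured 1.09, 1.08, 1.28, 1.53 and 1.75 FPKM and 1.41, 0.78, 1.17, 1.54 and 1.27 FPKM, with overlapping ranges. Ccne1 measured 0.585, 1.17, 1.11, 1.02 and 0.81 FPKM and 1.77, 1.08, 0.678, 0.38 and 1.09 FPKM, a range in Ang II mice that held the whole saline range. Tyms measured 1.02, 0.765, 0.86, 1.03 and 0.818 FPKM and 1.23, 0.769, 0.763, 0.881 and 1.05 FPKM, and Ccnd1 1.64, 1.73, 2.13, 1.76 and 1.8 FPKM and 3.76, 1.31, 1.62, 2.59 and 2.64 FPKM. Ang II replicate 1 was again highest in both. Pcna measured 35.4, 34.0, 31.3, 39.4 and 32.5 FPKM with saline and 28.6, 20.4, 22.5, 31.8 and 21.7 FPKM with Ang II, where 4 of the 5 Ang II mice lay below every saline mouse.

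WT Ang II replicate 1 lay above every WT saline mouse in 31 of the 41 genes (22 of 23 mitosis and 9 of 18 replication genes). Its median mitosis gene stood at 2.21 times the saline mean, while those of replicates 2 to 5 stood at 0.625, 0.661, 0.853 and 0.834 times. Replicates 2 and 3 each lay below every saline mouse in 14 of 23 mitosis and 11 of 18 replication genes. In replicates 4 and 5 this held for 4 and 10 mitosis genes and for 5 and 7 replication genes. Replicates 2 to 5 each lay above every saline mouse in at most 3 genes of either class. For single mice the matching shares of all genes are not given here. The median log2 difference over all genes tested in WT mice was -0.14. Mitochondrial genes took 20.8, 27.4, 29.1, 14.6 and 24.5% of the summed FPKM in Ang II replicates 1 to 5. Their part in these counts was not tested. Without replicate 1 the median ratio of means in WT mice was 0.785 over the mitosis genes and 0.795 over the replication genes, and 4 of 41 ratios were above 1. Leaving it out still gave 0 of 41 genes with every Ang II mouse above every saline mouse, and 0 members called by limma with Benjamini-Hochberg adjustment.

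Between the genotypes under Ang II the list was higher in Plod1-/- mice, in a comparison that shares the Plod1-/- Ang II mice with the one above. In 30 of 41 genes every Plod1-/- mouse lay above every WT mouse (18 of 23 mitosis and 12 of 18 replication genes), against 5.06% of all genes, and in 0 of 41 below, against 1.89%. The median ratio of means was 14.8 over the mitosis genes (range 5.17 to 22.2) and 3.70 over the replication genes. Without a limit on low values limma with Benjamini-Hochberg adjustment called 30 of 41 higher (19 of 23 and 11 of 18), beside 2.14% of all genes. That count was 17 without WT Ang II replicate 3 and 0 with the replicate number as a block, where 38 members had an unadjusted p below 0.05. The share of all genes at that p with the block is not given here, so the 38 cannot be judged against it. Within the limit 22 of 28 were called with and without the block, beside 7.45% of all genes tested, but 4 of the 28 (Top2a, Cdk1, Tpx2 and Foxm1) had passed the limit through the Plod1-/- group alone. The counts of groups that did not overlap depended on a mouse in each group: 38 of 41 without Plod1-/- Ang II replicate 1 (10.5% of all genes), 36 without WT Ang II replicate 1 (8.51%) and 39 without both (14.3%).

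Mitosis genes again had the larger differences. Ccnb2 differed by 2.89 ± 0.39, Cdc20 by 2.86 ± 0.33 and Ube2c by 2.69 ± 0.36 on the log2 scale (limma, adjusted p = 0.0014, 0.000885 and 0.00142). Among replication genes Rrm2 differed by 2.35 ± 0.35 and Mcm5 by 2.1 ± 0.26 (limma, adjusted p = 0.00192 and 0.00105). Mcm4 crossed the size needed for a call here, at 1.11 ± 0.23 (limma, adjusted p = 0.00712). Pcna at 0.95 ± 0.17 (limma, adjusted p = 0.00437), Mcm6 at 0.81 ± 0.21 (adjusted p = 0.0148) and Cdk2 at 0.49 ± 0.13 (adjusted p = 0.0197) passed the adjusted p alone. Ccnd1 (0.47), Ccnd2 (-0.07) and Mcm7 (0.47) did not pass it, with limma adjusted p-values of 0.25, 0.79 and 0.107. The 13 members below the limit each had an exact permutation p of at most 0.0238 and 8 of them the smallest possible, with log2 differences of 0.59 (Cenpf) to 2.14 (Ccnb1).

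With saline the genotypes were close. In 0 of 41 genes was every Plod1-/- mouse above every WT mouse (1.65% of all genes), and in 2, Ccnd2 and Cdk2, every Plod1-/- mouse was below (2.49%). Limma with Benjamini-Hochberg adjustment called 0 of 15 tested members (13 replication and 2 mitosis genes), beside 0.358% of all genes called higher. Of the 15, 4 had an unadjusted p below 0.05, and the share of all genes at that p is not given here. By the adjusted p alone Ccnd2 was lower in Plod1-/- mice, at 9.02 ± 0.885 against 11.8 ± 0.831 FPKM (-0.35 ± 0.08, limma adjusted p = 0.0344), a direction shared by 3.23% of all genes tested. Cdk2 differed by -0.34 ± 0.09 (limma, adjusted p = 0.0511). Of the 26 members below the limit, Cdc6 had the lowest exact permutation p (0.0397, log2 difference -0.13). The median ratio of means, Plod1-/- over WT, was 0.953 over the mitosis genes and 0.884 over the replication genes.

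Whether the response to Ang II differed between genotypes was tested by the interaction term over all 20 mice. Without a limit on low values 33 of 41 members were called with a larger log2 response in Plod1-/- mice (19 of 23 mitosis and 14 of 18 replication genes), against 2.97% of all genes, and 0 with a smaller one. Within the limit 24 of 28 were called, beside 9.69% of all genes tested (limma, Benjamini-Hochberg), but 12 of the 28 would not have reached 1 FPKM in 5 mice without the Plod1-/- Ang II group. These 12 were all called, and of the other 16 members 12 were called. The difference of log2 responses was 2.96 ± 0.42 for Ccnb2, 2.42 ± 0.34 for Cdk1 and 2.36 ± 0.35 for Aurkb (limma, adjusted p = 8.67e-05, 7.97e-05 and 0.000123). Mcm5 had the smallest adjusted p, 3e-05, with a difference of 2.36 ± 0.29 (limma). Pcna (1.17 ± 0.19, limma adjusted p = 0.000273) and Mcm6 (1.11 ± 0.26, adjusted p = 0.00328) were called here although neither was called in a single genotype, and both were lower with Ang II in WT mice by the adjusted p. Ccnd1, Ccnd2 and Mcm7 had differences of 0.46, 0.28 and 0.59 that did not pass (limma, adjusted p = 0.307, 0.31 and 0.0931). With Plod1-/- Ang II replicate 1 left out and the limit lowered to 4 mice, 32 of 36 tested members were called (limma, Benjamini-Hochberg).

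Other genes of the cell cycle, taken from lists by function, moved alongside in Plod1-/- mice. These lists were chosen with earlier results of these data known, so their counts are no separate support. Of 73 other mitosis genes, 50 were called higher and 0 lower after Ang II without a limit on low values (limma, Benjamini-Hochberg), beside 3.16% of all genes called higher, led by Cdkn3, a phosphatase of cyclin-dependent kinases (2.73), Stmn1, which destabilises microtubules (2.64), Cdca3 (2.59) and Lmnb1, lamin B1 (2.57 on the log2 scale). Of 56 other replication genes, 16 were called higher and 0 lower in the same fit, with Uhrf1, which carries DNA methylation through replication (2.55), Asf1b, a histone chaperone (2.02), Dctpp1 (1.54) and Cdc45, a helicase cofactor (1.42), ahead. Median log2 differences were 1.27 over the other mitosis genes and 0.74 over the other replication genes. In WT mice 0 of the 73 and 1 of the 56 were called, beside 1.94% of all genes called higher, the latter being Gmnn, geminin, an inhibitor of Cdt1 (1.26 ± 0.33, limma adjusted p = 0.0146).

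Among the regulators around the list few genes were called. Of 22 genes of G1 and the Rb pathway, 19 of them tested, Myc was called higher (2.86 ± 0.11, limma adjusted p = 8.56e-07) and Lin52, a MuvB subunit, lower (-1.04 ± 0.15, adjusted p = 0.000387) in Plod1-/- mice, and 0 were called in WT mice. Among all genes tested 8.38% were called higher and 5.51% lower in Plod1-/- mice, and 6.38% higher and 2.28% lower in WT mice, so 1 of 19 in a direction is no more than the share over all genes. Between genotypes under Ang II, Myc (2.37) and Tfdp1, the dimer partner of E2F (1.14), were called higher in Plod1-/- mice (limma, adjusted p = 0.000885 and 0.002; 7.45% of all genes tested). Of 22 inhibitors of the cell cycle, 21 of them tested, Pkmyt1, a kinase that restrains Cdk1, was called higher in Plod1-/- mice (1.16 ± 0.17, limma adjusted p = 0.000491). This 1 of 21 is also no more than the 8.38% of all genes. Between genotypes under Ang II, Pkmyt1 (1.28) and Btg2 (1.17) of this list were called higher in Plod1-/- mice (limma, adjusted p = 0.00196 and 0.0132), beside 7.45% of all genes tested. In WT mice Cdkn2c, an inhibitor of Cdk4 and Cdk6, was called higher (1.87 ± 0.26, limma adjusted p = 0.00181), beside 6.38% of all genes. Btg2 (-2.21), Btg3 (-1.25) and Wee1, another kinase that restrains Cdk1 (-1.2), were called lower in WT mice (limma, adjusted p = 0.00197, 0.0027 and 0.00415), beside 2.28% of all genes. The difference of Btg2 between genotypes under Ang II stands beside this fall in WT mice. With saline 0 genes of these 4 lists were called between the genotypes, by limma with Benjamini-Hochberg adjustment. An unadjusted p below 0.05 was found for 7 of the other replication, 6 of the other mitosis, 5 of the G1 and Rb and 5 of the inhibitor genes. The share of all genes at that p is not given here, so these counts cannot be judged against it.

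**Figure D4:**
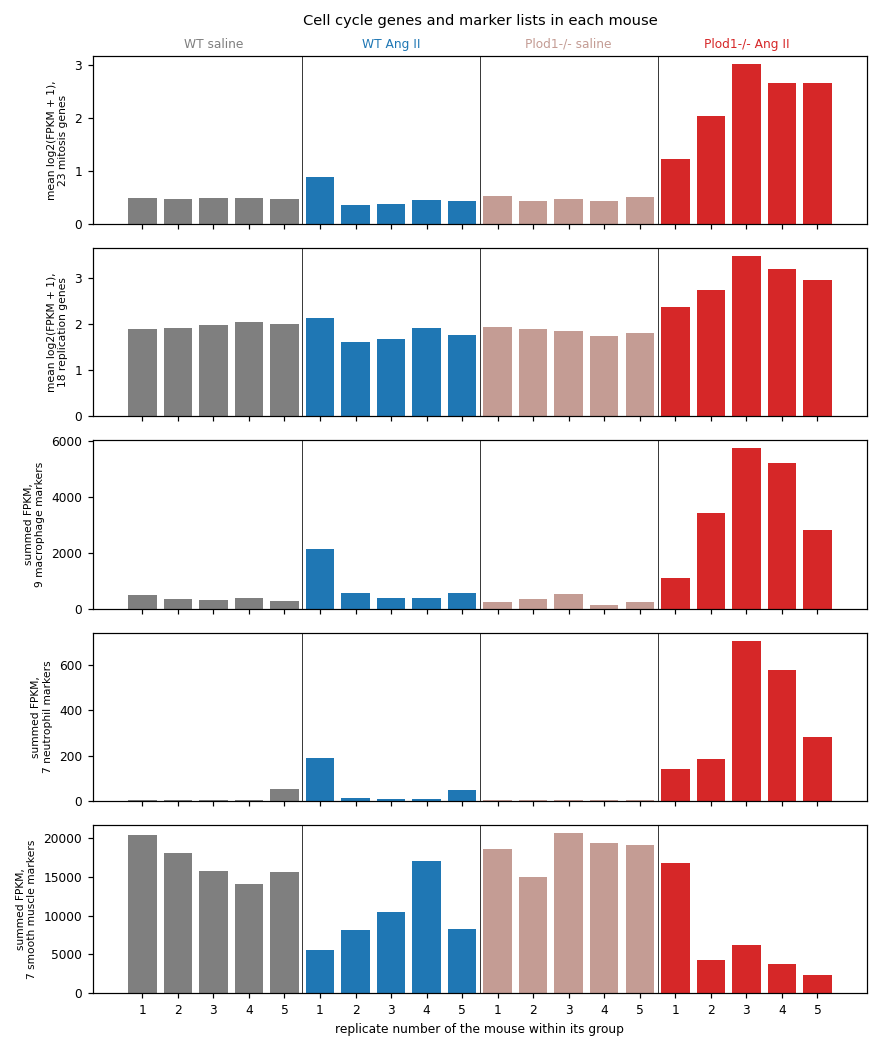
Mean log2(FPKM + 1) over the 23 mitosis and the 18 replication genes (upper panels) and summed FPKM of the macrophage, neutrophil and smooth muscle markers (lower panels) in each of the 20 mice (bars, by group and replicate number), all axes starting at 0. WT Ang II replicate 1 has the highest mitosis bar of its group and the highest macrophage sum of the WT mice (2134 FPKM), and Plod1-/- Ang II replicate 1 has the lowest mitosis bar and the lowest macrophage sum of its group (1077 FPKM).

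Markers of other cells also changed with Ang II, and their part in the result was not tested. All 9 macrophage markers and all 7 neutrophil markers were higher in every Plod1-/- Ang II mouse than in every Plod1-/- saline mouse, against 7.37% of all genes. Against WT Ang II mice 0 of 9 macrophage and 1 of 7 neutrophil markers were higher in every Plod1-/- Ang II mouse (5.06% of all genes). In that comparison limma with Benjamini-Hochberg adjustment called 9 of 9 and 4 of 5 tested higher, beside 7.45% of all genes tested. The macrophage sum ranged from 1077 to 5725 FPKM in Plod1-/- Ang II mice, 115 to 505 FPKM with saline, 366 to 2134 FPKM in WT Ang II mice and 255 to 469 FPKM in WT saline mice. The neutrophil sum ranged from 140 to 709 FPKM in Plod1-/- Ang II mice, 1.42 to 3.0 FPKM with saline, 6.7 to 188 FPKM in WT Ang II mice and 3.05 to 50.6 FPKM in WT saline mice. Ly6g, a defining neutrophil marker, stayed at or below 0.707 FPKM in every library. In both Ang II groups the mouse with the highest mitosis genes also had the highest macrophage and neutrophil sums. The other mice did not all keep this order. WT Ang II replicates 2 and 5 had macrophage sums of 563 and 564 FPKM, above every WT saline mouse. Their median mitosis genes stood at 0.625 and 0.834 times the saline mean. Plod1-/- Ang II replicate 5 exceeded replicate 2 in the median mitosis gene (18.4 against 10.5 times) and neutrophil sum (282 against 185 FPKM). Its macrophage sum was lower (2822 against 3397 FPKM).

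Smooth muscle markers went the other way. Their sum ranged from 2298 to 16762 FPKM in Plod1-/- Ang II mice and from 15030 to 20706 FPKM with saline. Of the 7 markers 4 were lower in every Ang II mouse, against 5.75% of all genes. Plod1-/- Ang II replicate 1, the lowest in cell cycle genes, had the highest smooth muscle sum of its group. Replicate 3, the highest in 35 of the 41 genes, had 6162 FPKM, above replicates 2, 4 and 5 (2298 to 4201 FPKM). In WT mice the sum ranged from 5510 to 17041 FPKM with Ang II and from 14092 to 20412 FPKM with saline. Replicate 1 of the WT Ang II group was the lowest. Replicates 2, 3 and 5 also lay below the saline range, at 8139, 10479 and 8275 FPKM. Their median mitosis genes stood at 0.625, 0.661 and 0.834 times the saline mean. Fibroblast markers summed to 1072 to 5738 FPKM in Plod1-/- Ang II mice against 475 to 761 FPKM with saline. Of these 7 markers 2 were higher in every Ang II mouse, against 7.37% of all genes. Of 6 endothelial, 7 B and plasma cell and 7 T and NK cell markers, 0 were higher in every Plod1-/- Ang II mouse. Globin and other red cell genes summed to 683 to 8125 FPKM in Plod1-/- Ang II mice, against 53.7 to 1321 FPKM with saline, 163 to 585 FPKM in WT Ang II mice and 132 to 1238 FPKM in WT saline mice. Of these 7 red cell markers 1 was higher in every Plod1-/- Ang II mouse than in every Plod1-/- saline mouse, and the erythroid genes Klf1 and Rhag reached at most 0.373 and 0.134 FPKM in any library. Adipocyte markers summed to 1270 to 5740 FPKM in WT Ang II mice against 126 to 657 FPKM in WT saline mice. In Plod1-/- mice they summed to 840 to 6120 FPKM with Ang II against 213 to 1859 FPKM with saline. Skeletal muscle markers summed to 2.69 to 285 FPKM against 3.6 to 6.39 FPKM in WT mice. The skeletal muscle sums of Plod1-/- mice were 3.62 to 8.63 FPKM with Ang II against 5.32 to 8.03 FPKM with saline.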

How the data were processed

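Total RNA from the abdominal aorta of each of 20 mice was sequenced, 1 library a mouse and 5 mice a group. The deposited values are FPKM for 43422 Ensembl genes, of which 43226 had a symbol. The authors removed ribosomal reads, aligned the rest to the mouse genome (mm10 per the labels), assembled and merged transcripts with stringtie, quantified them with cuffquant and scaled the FPKM across libraries with cuffnorm. The submitters' processing notes name HISAT2 2.1.0, Bowtie2 2.2.3 and HTSeq 0.6.0. The library kit does not mark strand, and 16 of the 41 genes overlap a gene on the other strand. Reads of Ccnb2, Pcna, Ccnb1 and Tyms can be shared with pseudogenes, whose highest FPKM in any library were 2.54, 1.26, 0.689 and 0.0841.

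FPKM are not counts, so the count test named in the methods could not be run, and how many reads stand behind a library is unknown. Groups came from the labels and symbols from GENCODE M21. Within each comparison limma 3.58.1 (R 4.3.3) with a variance trend was fitted to log2(FPKM + 1) of the 10 mice compared, or of all 20 for the interaction, over the genes that 5 or more mice expressed at 1 FPKM or above. P-values were two-sided and Benjamini-Hochberg adjusted over all genes tested, and the thresholds (adjusted p below 0.05, log2 difference above 1) were those of the methods. Genes below the filter were compared by an exact permutation test of 5 against 5 mice. Sets of mice were also compared by whether their values overlapped. The fits were tested on simulated data first.

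The members and the lists were chosen with earlier results of these data known. Genes with values in every mouse are the 4 mitosis and 4 replication genes with the smallest p in the Plod1-/- response, plus Mki67, Top2a, Pcna, Mcm2 and Ccnd1, and from each other list the called genes with the 4 largest changes. Alternatives were a pseudocount of 0.1, no filter or a filter of 0.1 FPKM, the replicate number as a block, quantile normalization, mitochondrial genes left out, weights per mouse, all groups in one fit, no variance trend, the adjusted p alone, and mice left out. Promoter windows came from RefSeq on GRCm38.p6. For a symbol with several windows each motif was counted in the window with the most matches to it. The sequences printed are those of the first listed window. For 8 members (Aurkb, Ccna2, Ccnd1, Ccnd2, Foxm1, Kif20a, Mcm4 and Tpx2) there was no window in the tables used here. The level of 1 red cell marker is not reported here.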

Additional observations from a re-analysis of the deposited data

Results flagged for a closer look

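A single mouse stood apart within its group of 5 by Dixon's ratio, the gap to the nearest mouse over the range of the group, where values above 0.71 were taken up and chance gives about 1 in 20 such sets. WT Ang II replicate 1 was the high mouse for Aurkb (0.869), Ube2c (0.844), Ccnb2 (0.836), Mki67 (0.821), Cdk1 (0.803) and Top2a (0.783), and for the mean over the mitosis genes (0.817). Plod1-/- saline replicate 2 was the high mouse for Ccne1 (0.755), and WT saline replicate 4 for Mcm5 (0.714). Over all 164 sets of a gene and a group 19 passed this value, and in 11 of them WT Ang II replicate 1 was the high mouse.

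By the interaction term the log2 response to Ang II was larger in Plod1-/- than in WT mice for 24 of 28 members tested. A call needed a limma Benjamini-Hochberg adjusted p below 0.05 and a difference above 1 on the log2 scale. Among all genes tested 9.69% were called in this direction. Of the 28, 12 passed the limit on low values only with the Plod1-/- Ang II group. These 12 were Aurka, Aurkb, Birc5, Ccnb2, Cdk1, Cdt1, Foxm1, Rrm2, Top2a, Tpx2, Tyms and Ube2c. All 12 were called, but the limit had selected them for high levels in that group, so their calls are no separate support. Of the other 16 members 12 were called. Among mitosis genes the difference of responses was 2.96 for Ccnb2, 2.82 for Ube2c, 2.74 for Cdc20, 2.42 for Cdk1, 2.37 for Birc5, 2.36 for Aurkb, 2.25 for Plk1, 2.15 for Tpx2, 2.12 for Top2a, 2.08 for Aurka and 1.79 for Foxm1. Among replication genes it was 2.39 for Rrm2, 2.36 for Mcm5, 1.78 for Cdt1, 1.69 for Mcm3, 1.49 for Ccne1, 1.37 for Tk1, 1.33 for Tyms, 1.26 for Mcm2, 1.18 for E2f1, 1.17 for Pcna, 1.11 for Mcm6, 1.1 for Mcm4 and 1.08 for Rrm1.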

How the results depend on the processing

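The number of members called was within 1.5 times the count given above, with the same direction, under every alternative fit except those named here. In the Plod1-/- response it was 11 of 17 tested without both libraries with Xist RNA, and ranged from 11 to 21 as single mice were left out. A filter that asks for 5 mice removes genes high only in a group of 4, and at 4 mice the counts were 29 without Plod1-/- Ang II replicate 1 and 30 without both libraries. In WT mice 3 members passed by the adjusted p alone and 1 was called with weights per mouse, all lower, and between genotypes with saline 1 passed by the adjusted p alone. Single mice left out gave 0 calls in both. With no filter on low values the genotype comparison under Ang II gave 30 calls, and 17 to 35 as mice were left out (17 without WT Ang II replicate 3). With the replicate block it gave 0, where 38 members had an unadjusted p below 0.05. The share of all genes at that p is not given here, and the cause was not tested. The replicate block left the other call counts as they were, apart from 32 in place of 33 in the interaction with no filter, and the numbers do not pair the mice, since correlations of same-numbered mice ran from -0.332 to 0.421. As mice were left out, 0 to 1 members were lower in every Plod1-/- Ang II mouse than in every saline mouse (1, Ccnd2, without both libraries with Xist RNA, Plod1-/- saline replicate 2 or Plod1-/- Ang II replicate 1), and 0 to 1 were higher in WT mice (1 without WT Ang II replicate 2). Quantile normalization moved the median of all genes by -0.11 in the Plod1-/- response, -0.14 between genotypes under Ang II and -0.13 in the interaction, and the members called were then 21, 20 and 21. Of 1030 alternative values for single genes 1021 kept their side of the thresholds and 9 crossed to a call, Ccnd1 once and Pcna 8 times, and 0 reversed. The unknown depth and the low FPKM of most mitosis genes outside Plod1-/- Ang II mice limit what the saline and WT comparisons could detect, and whole aorta does not show which cells hold the RNA.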
